A study of Mus musculus with 12 samples.

Results

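The GFP virus dose series is a set of 4 RNA-seq libraries of mouse embryonic fibroblasts, 1 library each at a multiplicity of infection (MOI, infectious virus particles added per cell) of 15, 30, 60 and 120. They were chosen by their labels alone, out of 12 libraries in the study and 10 in the same count table. The virus was lenti-GFP, a lentivirus that carries green fluorescent protein and no muscle factor. By its labels the series varies the amount of this virus, with the GFP it carries, without MyoD or Myf5. With 1 library each, dose cannot be told apart from culture or library. All cells were M&M MEFs of genotype MyoD-/-; Myf5-/-, which lack both of the transcription factors that commit cells to skeletal muscle, and the other groups used here share that genotype: 2x and 1x lenti-MyoD, 2x and 1x lenti-Myf5, 1x lenti-GFP and untransduced cells, 1 library each. Infection took place in medium with polybrene (8 µg per ml), a differentiation medium without fetal serum followed after 24 h, and RNA was taken 20 h later. The sources used here do not give how 1x relates to the MOI scale, how many embryos gave the cells, whether the libraries were made together, or whether any dose was repeated in a separate culture. No transcript of the virus was analysed here, so the dose is the labelled one and not a measured one.

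A lentivirus enters as an RNA genome that is copied into DNA and inserted in the host chromosomes. Cells recognise foreign RNA and DNA with sensors such as RIG-I (Ddx58), MDA5 (Ifih1) and cGAS, which lead to type I interferon, and the interferon receptor acts through transcription factors on a promoter sequence called the interferon-stimulated response element (ISRE). The genes so induced block viral entry, RNA stability and translation, and fibroblasts are known to mount this response well. The other gene lists cover targets of p53, which responds to DNA damage, targets of ATF4, which responds to stress on translation and amino acid supply, the cell cycle, and lipid synthesis, which the SREBP factors govern.

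The 4 libraries held 17.9 to 22.4 M counts (M, mega), against 68.3 to 81.5 M in the other 6 libraries of the table, so genes of low level are less precise in the dose series. They lay close together, with correlations of 0.991 to 0.997 between pairs on the log2 CPM scale (CPM, a gene's count scaled to a common library total), but the chi-square of each pair's counts, 2.02 to 17.97 for each degree of freedom, was above the value of 1 that counting noise gives. The first principal component held 58.5% of the variance and placed the libraries in the order of dose, at -16.3, -3.39, 1.45 and 18.2 from MOI 15 to 120. The 9 fibroblast markers written for the check of the label, collagens and Pdgfra among them, were all detected and summed to 20551, 20412, 19559.8 and 19439.7 CPM in the order of dose. Macrophage markers summed to 22.5 to 28.1 CPM, with Adgre1 and C1qa at 0, and endothelial and epithelial markers to 1.595 to 3.04 CPM. Adipocyte markers had the highest sum after fibroblast ones, 64.9 to 79.0 CPM, with Adipoq, Plin1 and Cidec at 0. Markers of neuron and glia summed to 18.5 to 24.8 CPM, and those of skeletal muscle to 0.896 to 1.595 CPM. Myf5 had 17.6, 20.8, 18.3 and 19.4 CPM and Myod1 5.93, 5.6, 5.99 and 5.43 CPM in the order of dose, with no call on either slope, and Myog had no count in the 4 libraries. Since the sources used here do not give which part of either gene is deleted, these counts do not check the genotype.

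With rising MOI, 88 of 109 tested genes of the interferon and MHC class I lists rose, and 15 of 24 p53 targets rose by small steps, against 4.06% of all genes. All 21 cholesterol genes tested fell, as did 10 of 11 genes of fatty acid synthesis, 16 of 22 of the ATF4 stress response and 14 of 22 of mitosis, against 3.42% of all genes. Counts are over the list members that passed the filter on low counts. For each of 13383 genes, edgeR's quasi-likelihood test asked whether the slope on log2 MOI, the log2 change per doubling of MOI, differed from 0 (two-sided, called at a Benjamini-Hochberg adjusted p under 0.05 over all genes). The slope was called in 1002 genes, 7.49% of those tested: 544 rose (4.06%) and 458 fell (3.42%). Rising genes had the larger slopes. The median slope was 0.15 among the 544 rising genes, a fitted 1.35-fold from MOI 15 to 120, and -0.11 among the 458 falling genes, a fitted 0.803-fold, against -0.00023 over all genes. A fitted change of 2-fold or more over the series was reached by 104 rising and 7 falling genes, and 51 of those 104 belong to the interferon and MHC lists. Of the 544 rising genes 137 stood in a list and 407 in none, and of the 458 falling genes 84 stood in one and 374 in none.

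Each dose had 1 library, so these p-values measure the scatter of 4 single libraries around a line. When the spread was taken from all 10 libraries instead, where 2x and 1x of each muscle factor count as repeats, no gene was called, with 874 at an unadjusted p under 0.05 against 2679 in the 4-library fit. The slope in that fit comes from the same 4 MOI libraries, so it gives no separate check on direction. Leaving out 1 library gave 308 rising and 220 falling genes without MOI 15, 451 and 317 without MOI 30, 843 and 785 without MOI 60, and 226 and 113 without MOI 120. Of the 1002 calls, 3 had the opposite sign without MOI 120 and none without any other dose. DESeq2 called 288 rising and 198 falling genes. The interferon-effector, OAS, GTPase, Ifi200, sensor, MHC and restriction-factor lists stayed within 1.5 times their counts by DESeq2 and without any 1 dose, and no list had a call with the spread of all 10 libraries.

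**Figure D1:**
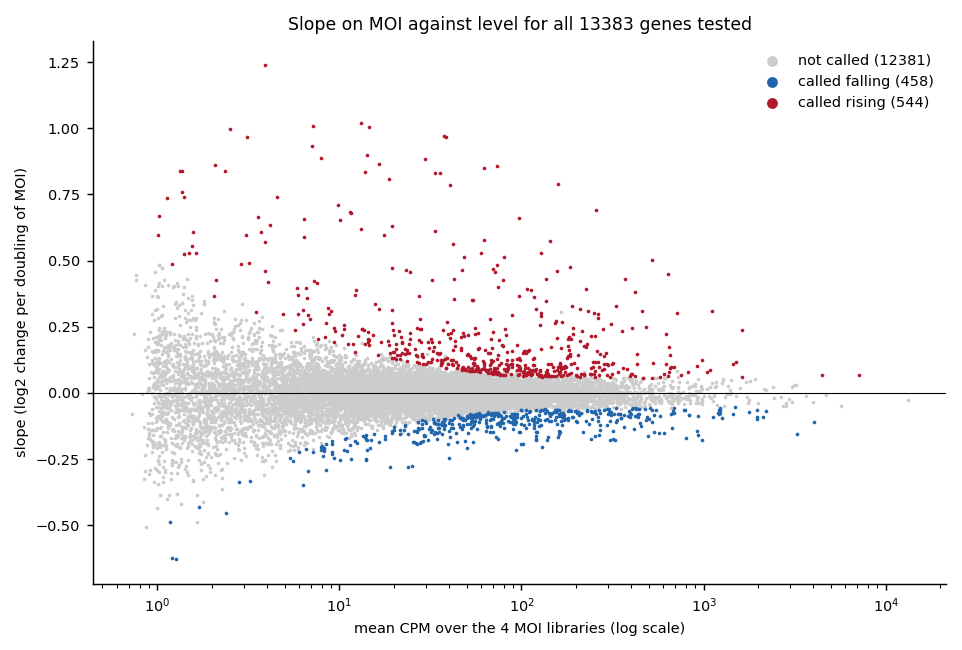
Slope on log2 MOI (vertical axis, log2 change per doubling) against the mean CPM over the 4 MOI libraries (horizontal axis, log scale) for the 13383 genes tested, 1 point per gene. Rising genes (544, red) reach slopes above 1, while most of the falling genes (458, blue) lie between 0 and -0.3.

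For most called genes the last doubling gave the largest change. The step from 60 to 120 was the largest of the 3 steps in 328 of the 544 rising genes, the step from 15 to 30 in 150 and the step from 30 to 60 in 66. For the 458 falling genes the corresponding counts were 294, 85 and 79. The median steps of the rising genes were 0.16, 0.069 and 0.23 on the log2 scale in the order of dose, and those of the falling genes -0.10, -0.068 and -0.17, while the medians over all genes stayed within 0.001 of 0. A strictly rising order over the 4 doses was seen in 408 of the 544 rising genes and a strictly falling order in 364 of the 458 falling genes, against 1193 (8.91%) and 1208 (9.03%) of all genes. Since the slope was fitted to these same values, the counts describe the called genes and test nothing.

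Among called genes that were monotone over the 4 doses and averaged at least 5 CPM, the largest rises were in Ifi206, Rsad2, Oas1g, Tgtp1, Tgtp2, Gm4951, Trim30a, Sp100, Oas1a and Oas3. Rsad2, which encodes viperin, an enzyme that makes a chain-terminating nucleotide, had 2.23, 3.98, 5.9 and 16.5 CPM at MOI 15, 30, 60 and 120. Its slope was 1.01 ± 0.081 (SE; edgeR adjusted p = 2.24e-07), and the level at MOI 120 was 7.41 times that at MOI 15. Ifi206, of the Ifi200 family of DNA-binding proteins, had 3.14, 8.45, 11.3 and 29.5 CPM. Sp100, a component of PML nuclear bodies, had 2.08, 5.6, 8.31 and 15.8 CPM, and Trim30a, a ring-finger protein of the family that holds the capsid-binding TRIM5, had 4.1, 9.63, 13.2 and 29.4 CPM. Tgtp1 and Tgtp2, as well as Oas1a and Oas1g, are near copies of each other with counts that are not whole in 2 or 3 of the 4 libraries, so how reads were split between the copies is uncertain. Counts were not whole in 3 of the 4 libraries for Ifi206 either, and in 2 for Trim30a and Sp100.

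The 10 largest falls under the same limits were smaller, and none reached a fitted 2-fold. The 7 falling genes past 2-fold averaged under 5 CPM or were not monotone. Tubb3, the neuronal beta-tubulin, had 10.9, 9.57, 7.11 and 6.13 CPM, a slope of -0.29 ± 0.055 (SE; edgeR adjusted p = 0.00218). Trib3, a pseudokinase and target of ATF4, had 32.2, 24.1, 20.9 and 17.8 CPM with a slope of -0.28 ± 0.035 (SE; edgeR adjusted p = 3.42e-05). Slc2a6, a hexose transporter, had 24, 20.9, 18.2 and 12.8 CPM, and Stra6, a receptor for retinol-binding protein, had 31.1, 28.6, 23 and 17.4 CPM. The rest of the 10 were Uchl1, Spc24, Daam2, Gm6166, Ccdc28b and Cdkn3, with slopes from -0.25 to -0.22. Of these, Spc24 (counts not whole in all 4 libraries) is a subunit of the kinetochore and Cdkn3 a phosphatase of cyclin-dependent kinases.

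The interferon effectors, proteins that act directly on viral RNA or protein, rose in 31 of 34 genes tested and fell in 1, against 4.06% and 3.42% of all genes. Their median slope was 0.37, and their summed level was 3628, 5004, 5368 and 7884 CPM from MOI 15 to 120. Ifit1, which binds viral RNA with an unmodified cap, had 282, 434, 507 and 849 CPM, a slope of 0.50 ± 0.029 (SE; edgeR adjusted p = 1.07e-08). Usp18, the protease that removes ISG15 from proteins and dampens the receptor, had 81.1, 116, 141 and 205 CPM and a slope of 0.43 ± 0.022 (SE; edgeR adjusted p = 2.99e-09). Both genes were higher at each dose than at the dose before, and the step from 30 to 60 was the smallest of the 3. The next 3 members were picked after their values were seen. Isg15, the ubiquitin-like modifier, had 40.5, 78.2, 91.8 and 176 CPM. Mx1, a dynamin-like GTPase with antiviral action, had 5.27, 8.9, 10 and 22.3 CPM. Bst2 (tetherin), which holds budding virus on the cell, had 246, 429.6, 405 and 609 CPM. All 3 were lowest at MOI 15 and highest at MOI 120. The 1 member that fell was Ifi27, with 68.5, 47.5, 57.3 and 42.1 CPM (slope -0.18 ± 0.043, SE; edgeR adjusted p = 0.0119), and it was not called by DESeq2 or without MOI 15. Ifit1bl1 and Slfn5 were not called.

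The oligoadenylate synthetases sense double-stranded RNA and make a small messenger that leads to the breakdown of RNA. Their list had the steepest median, 0.69, and 7 of its 9 genes tested rose. Oas2 had 17.6, 45.7, 64.3 and 121 CPM (slope 0.85 ± 0.043, SE; edgeR adjusted p = 2.99e-09), and Oas3 had 4.86, 11.4, 16.6 and 32.9 CPM (slope 0.86 ± 0.049, SE; edgeR adjusted p = 1.07e-08). In both, the level at MOI 30 was already more than 2-fold that at MOI 15. Oas1c, at 6.89, 9.13, 7.64 and 11.3 CPM, was not called. The summed level of the list was 195, 391, 450.2 and 821 CPM.

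All 13 interferon-inducible GTPases tested rose, each in strict order of dose, with a median slope of 0.61 (0.37 without MOI 120). These proteins (the IRG and GBP families) attack membranes around intracellular parasites and bacteria. Igtp had 41.2, 62.5, 70.5 and 112 CPM (slope 0.46 ± 0.031, SE; edgeR adjusted p = 4.43e-08). Gvin1, whose reads may be split with near copies, had 10.9, 24.1, 30.4 and 68.1 CPM (slope 0.83 ± 0.051, SE; edgeR adjusted p = 1.8e-08). The median steps of the list were 0.67, 0.16 and 1.17, so the last doubling gave the largest of the 3. The Ifi200 genes, which encode DNA-binding proteins of the innate response, rose in all 8 of those tested with a median slope of 0.53. Ifi204 had 71, 117, 136 and 250.2 CPM (slope 0.57 ± 0.036, SE; edgeR adjusted p = 1.83e-08) and Mndal had 33.7, 46.2, 58 and 102 CPM. The members of this family lie close to each other in sequence, and 2 to 4 of the 4 libraries had counts that are not whole for these 2 genes.

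**Figure D2:**
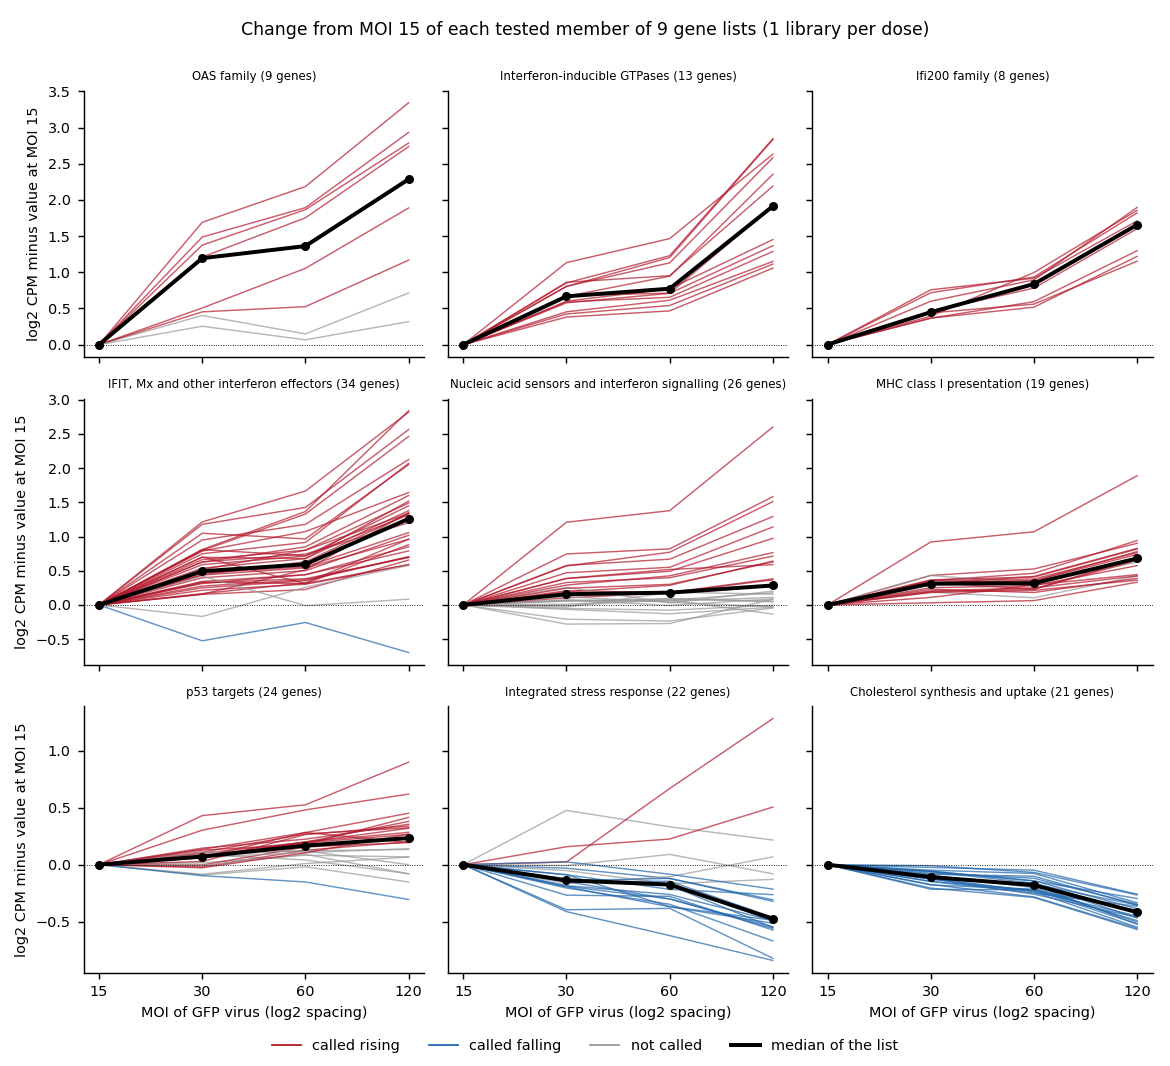
Log2 CPM of each tested member minus its value at MOI 15 (vertical axis, scale shared within a row of panels) against MOI (horizontal axis) for 9 lists, 1 thin line per gene and the list median in black, from 1 library per dose. The interferon lists climb at 15 to 30 and again at 60 to 120 with a flatter middle, p53 targets climb by small even steps, and the integrated stress response and cholesterol lists decline.

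Sensors and signalling genes split by role. Of 26 tested, 13 rose and none fell, with a median slope of 0.090. The called genes include sensors and transcription factors that interferon itself is known to induce: Irf7, which amplifies interferon transcription, had 105, 156, 179 and 298 CPM (slope 0.48 ± 0.030, SE; edgeR adjusted p = 1.93e-08). The next genes were chosen after their values were seen. Ifih1 (MDA5) had 39.4, 66, 69.6 and 118 CPM and Ddx58 (RIG-I) had 214, 262, 288 and 363 CPM, and both rose. Zbp1, a sensor of Z-form nucleic acid, rose with 6.18, 14.4, 16.2 and 37.8 CPM. The next 4 genes, which carry the signal onward, were not called. The adaptor Mavs had 36.1, 39.1, 37 and 35.2 CPM, and the adaptor Tmem173 (STING) had 36.2, 37.5, 38.5 and 37.4 CPM. The kinase Tbk1 had 73.6, 76.6, 76.5 and 79.1 CPM, and the receptor chain Ifnar1 had 111, 107, 105 and 109.8 CPM. Cgas, the DNA sensor, was not called either, at 5.47, 4.48, 4.51 and 5.78 CPM. The interferon genes themselves, looked up after other values were seen, had few counts. Ifnb1, which encodes interferon beta, had 2, 0, 3 and 10 raw counts at MOI 15, 30, 60 and 120, and did not pass the filter. It had 0 raw counts in 1x GFP and 4 in untransduced cells. Those libraries were deeper, with 81.5 and 72.7 M counts against 17.9 to 22.4 M, so the raw counts do not compare directly. Of 11 interferon genes matched by symbol, 2 had any count in the 4 libraries, 16 counts in all.

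Antigen presentation through MHC class I rose in 16 of 19 genes, with a median slope of 0.20 and a summed level of 3178, 3901, 3974 and 5128 CPM. H2-T22 and H2-Q4, non-classical class I chains, had 232, 287, 309.7 and 409.6 CPM and 63.7, 81.3, 87.8 and 122 CPM, with slopes of 0.26 ± 0.021 and 0.30 ± 0.026 (SE; edgeR adjusted p = 2.81e-07 and 5.19e-07). Counts of both were not whole in any of the 4 libraries, and how reads were split between near copies of the H2 genes is uncertain. Genes with no near copy rose too: Tap1, the peptide transporter, had 47.3, 63.7, 68.2 and 88 CPM (slope 0.28 ± 0.026, SE; edgeR adjusted p = 1.26e-06), and B2m, the light chain, picked after its values were seen, had 1247, 1557, 1593 and 2133 CPM. Restriction factors, which act on retroviruses at defined steps, rose in 7 of 22, against 4.06% of all genes. Their median slope was -0.0051, near the median of all genes. The called members include the interferon-inducible Trim30a and Samhd1, an enzyme that drains the nucleotides reverse transcription needs, at 56.6, 62.4, 70.2 and 91.3 CPM (slope 0.23 ± 0.025, SE; edgeR adjusted p = 7.47e-06). The silencing complex members Trim28, Setdb1 and Morc2a and the ribonuclease H2 genes were not called.

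A sequence common to many of these genes lies just before their start sites. The ISRE was searched as GAAA and GAAA with any 2 bases between them, on either strand and with overlaps allowed, in RefSeq promoter windows (GRCm38.p6), which run from 250 bases before to 50 bases after the start, and 9708 of the 13383 genes tested were matched by symbol. It stood in 78 of 399 rising genes (19.5%), 7 of 343 falling genes (2.04%) and 365 of 9708 of all genes tested with a window (3.76%). Of the interferon-inducible GTPases it stood in 9 of 10, of the Ifi200 family in 6 of 7, of the OAS list in 4 of 6, and of the effectors in 14 of 26. It stood in fewer genes of the other lists: 5 of 16 for MHC class I, 5 of 21 for sensors and signalling, and 6 of 20 for restriction factors. Among rising genes outside the interferon effector, OAS, GTPase, Ifi200 and MHC lists the share was 12.6%. A match of letters is a description and does not show a bound site. The windows of 3 rising genes with small p are shown, since they hold the motif alone, as a spaced pair and as an overlapping run, with its letters in capitals (read as TTTC, 2 bases, TTTC where it lies on the other strand).
Oas3 (chr5:120777610-120777909, minus strand): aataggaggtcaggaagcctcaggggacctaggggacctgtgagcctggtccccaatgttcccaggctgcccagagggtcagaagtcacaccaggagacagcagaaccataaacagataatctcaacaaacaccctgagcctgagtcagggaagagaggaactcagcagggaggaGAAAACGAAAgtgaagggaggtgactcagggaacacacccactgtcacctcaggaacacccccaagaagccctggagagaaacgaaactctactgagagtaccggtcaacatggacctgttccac
Ifit1 (chr19:34640639-34640938, plus strand): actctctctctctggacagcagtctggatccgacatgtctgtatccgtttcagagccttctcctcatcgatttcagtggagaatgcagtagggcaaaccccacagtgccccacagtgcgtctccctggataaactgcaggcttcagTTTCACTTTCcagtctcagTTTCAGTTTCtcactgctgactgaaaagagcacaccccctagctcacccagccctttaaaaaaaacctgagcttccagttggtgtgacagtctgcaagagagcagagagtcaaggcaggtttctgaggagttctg
Isg15 (chr4:156200769-156201068, minus strand): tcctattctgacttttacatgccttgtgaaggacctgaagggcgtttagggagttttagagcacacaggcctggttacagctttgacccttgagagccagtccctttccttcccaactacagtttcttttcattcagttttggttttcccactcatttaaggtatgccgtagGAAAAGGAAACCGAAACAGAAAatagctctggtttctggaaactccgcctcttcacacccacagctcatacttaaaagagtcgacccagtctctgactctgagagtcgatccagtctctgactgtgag
The single match of Oas3 starts 75 bases before the start site, the pair of Ifit1 104 and 85 bases before it, and the 3 overlapping matches of Isg15 between 78 and 66 bases before it. Slopes of these genes were 0.86, 0.50 and 0.66 per doubling of MOI.

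Chemokines and NF-kB targets were mixed, with 5 rising and 2 falling (Nfkbia and Tnfaip2) of 21 tested and a median slope of 0.0076. Over all genes 4.06% rose and 3.42% fell. The rises included Ccl5, a chemokine for T cells, with 15.4, 26.8, 39.5 and 79.7 CPM (slope 0.79 ± 0.036, SE; edgeR adjusted p = 1.37e-09), and Cxcl10, an interferon-induced chemokine, with 23.2, 30.5, 41.9 and 72.8 CPM (slope 0.56 ± 0.035, SE; edgeR adjusted p = 1.93e-08). Of genes chosen after their values were seen, Nfkbia, the inhibitor that NF-kB itself induces, fell, at 159.7, 149.7, 149 and 133 CPM. Tnfaip3, another feedback inhibitor, was not called, at 38, 39.8, 38.4 and 34.1 CPM. Without MOI 120, 2 members rose and 1 fell, no member fell by DESeq2 or without MOI 15, and 4 fell without MOI 60. Of 12 complement and acute phase genes, 3 rose (C4b, C1ra and Steap4), and none did by DESeq2 or without MOI 120, while 6 did without MOI 60. C1ra, a protease of the first complement component, had 292, 301, 299.996 and 377 CPM (slope 0.11 ± 0.024, SE; edgeR adjusted p = 0.0071), flat until the last dose, while C4b had 2.33, 1.79, 3.13 and 5.48 CPM.

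Targets of p53, the transcription factor that responds to DNA damage, rose in 15 of 24 genes and fell in 1 (Sesn1). The slopes were small, with a median of 0.086, and the median steps were even, 0.071, 0.10 and 0.066. Mdm2, the ubiquitin ligase that limits p53, had 248, 272, 302 and 338 CPM (slope 0.15 ± 0.017, SE; edgeR adjusted p = 9.26e-06). Cdkn1a (p21), which arrests the cell cycle, was picked after its values were seen, and had 347, 365, 397 and 416 CPM (slope 0.092 ± 0.016, SE; edgeR adjusted p = 0.00141). Levels rose with each dose in both. Tap1, the steepest member, is interferon-induced as well and stands in the MHC list too. The apoptotic targets Bax, with 122, 129, 133 and 133 CPM, and Bbc3 (Puma), with 25.6, 27.2, 26.4 and 24.1 CPM, were not called, nor was Fas. DESeq2 called 9 members as rising, and 9 and 8 rose without MOI 15 and without MOI 120.

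Genes of mitosis and G2-M fell in 14 of 22 and rose in none, with a median slope of -0.11 (-0.075 without MOI 120) and a summed level of 1148, 1092, 1041 and 907 CPM. Top2a, the topoisomerase that untangles replicated DNA, had 119.7, 111, 106 and 89.2 CPM (slope -0.13 ± 0.021, SE; edgeR adjusted p = 0.000506), and the proliferation marker Mki67 had 132, 122, 118 and 99.8 CPM (slope -0.12 ± 0.020, SE; edgeR adjusted p = 0.000894). Both declined at each dose. These calls rest on the highest dose: without MOI 120 none of the 22 was called, 8 were without MOI 15, and DESeq2 called 5. Few DNA replication genes were called, beside 4.06% of all genes rising and 3.42% falling. Of 25 tested, Mcm6, a helicase subunit, rose and Uhrf1, which guides DNA methylation at the fork, fell, with 99.9, 104, 104 and 116 CPM and 30.4, 31.2, 29.2 and 22.4 CPM, and neither was called by DESeq2, without MOI 30 or without MOI 120. In bulk RNA, fewer cells in a phase and less RNA per cell cannot be told apart. Of 20 replication-dependent histone genes written, 6 passed the filter in these oligo-dT libraries. Of those 6, Hist1h1c, at 21.9, 27.5, 28.5 and 33.8 CPM, and Hist1h2bc, at 12.5, 13.4, 16.2 and 19.2 CPM, rose, and 1 did without MOI 15 or without MOI 120. Their counts cover only RNA that oligo-dT captures and are not a measure of DNA replication. Reads of histone genes can be shared between copies.

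The integrated stress response adjusts translation and amino acid supply through the transcription factor ATF4. Of 22 genes, 16 fell and 2 rose, with a median slope of -0.14 (-0.088 without MOI 120) and median steps of -0.14, -0.084 and -0.19. Atf4 had 384, 346, 312 and 262 CPM (slope -0.18 ± 0.017, SE; edgeR adjusted p = 2.38e-06), and Atf5, a related factor, had 290.0, 253, 224 and 202 CPM (slope -0.17 ± 0.017, SE; edgeR adjusted p = 2.56e-06). Both declined at each dose. The amino acid and one-carbon enzymes went the same way, here picked after their values were seen. Asns, asparagine synthetase, had 113, 98.1, 89 and 70.8 CPM. Psat1, of serine synthesis, had 144, 119.8, 119 and 96.6 CPM, and Mthfd2, of mitochondrial folate metabolism, had 51.7, 39.2, 39.6 and 29.1 CPM. The exceptions were Ddit3 (CHOP), which rose with 88.8, 98.9, 104 and 126 CPM (slope 0.16 ± 0.021, SE; edgeR adjusted p = 7.14e-05), and Atf3, which rose with 1.87, 1.9, 3.04 and 4.69 CPM (slope 0.49 ± 0.10, SE; edgeR adjusted p = 0.00341), both transcription factors that other stress pathways also induce. Without MOI 120, 8 members fell and 1 rose.

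The ATF4 composite element, written TGATGNAA and searched on either strand, stood in 8 of 20 of the stress response genes with a window (40%), in 20 of 343 of falling genes (5.83%), in 22 of 399 of rising genes (5.51%) and in 262 of 9708 of all genes tested (2.7%). The windows of Asns and Pck2, the mitochondrial PEP carboxykinase, are shown as the falling members with the smallest p that hold it, with the element in capitals (as its reverse complement in Pck2).
Asns (chr6:7693160-7693459, minus strand): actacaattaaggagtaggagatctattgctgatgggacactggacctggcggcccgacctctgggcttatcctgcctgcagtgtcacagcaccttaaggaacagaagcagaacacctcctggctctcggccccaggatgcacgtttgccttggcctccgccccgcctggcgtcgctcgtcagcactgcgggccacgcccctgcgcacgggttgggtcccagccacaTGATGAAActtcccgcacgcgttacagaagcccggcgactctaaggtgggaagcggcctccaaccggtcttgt
Pck2 (chr14:55540016-55540315, plus strand): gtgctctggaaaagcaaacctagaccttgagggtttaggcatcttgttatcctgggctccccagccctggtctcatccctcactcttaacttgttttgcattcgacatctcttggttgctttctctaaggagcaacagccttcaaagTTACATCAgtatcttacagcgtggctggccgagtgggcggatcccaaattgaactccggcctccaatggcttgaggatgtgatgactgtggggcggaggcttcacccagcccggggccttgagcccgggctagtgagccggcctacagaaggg
The match starts 23 bases before the start site of Asns and 103 bases before that of Pck2, whose slopes were -0.21 and -0.15. CCAAT stood in 57.1% of falling, 43.6% of rising and 43.5% of all genes, with 15 of 17 of the mitosis and 12 of 13 of the cholesterol genes, but also 13 of 14 of the unfolded protein response genes, of which none was called, and 15 of 20 of the DNA replication genes. The other motifs searched were a sterol element TCACNCCAC, the cyclic AMP element TGACGTCA, the E2F sites TTTCCCGC and TTTGGCGC and the NF-kB site, GGG and TTTCC with any 2 bases between them. All were searched on either strand, and the letters TTTC let ISRE, NF-kB and E2F matches overlap, each counted for itself. Their shares were 1.75%, 3.01%, 1.25% and 2.76% of rising genes, 2.62%, 2.92%, 2.62% and 4.08% of falling genes, and 1.43%, 3.54%, 3.42% and 1.94% of all genes. The sterol element as written stood in 0 of 13 cholesterol and 0 of 8 fatty acid genes with a window.

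Cholesterol synthesis and uptake fell as a whole pathway. All 21 genes tested were called as falling, and each declined in strict order of dose. The median slope was -0.13, the range of slopes -0.18 to -0.08, and the summed level 7954, 7359, 6999 and 5897 CPM. Mvd, which makes isopentenyl diphosphate, had 366, 317, 300.04 and 246 CPM (slope -0.18 ± 0.019, SE; edgeR adjusted p = 5.84e-06), and Idi1, its isomerase, had 701, 642, 586 and 507 CPM (slope -0.15 ± 0.016, SE; edgeR adjusted p = 6.92e-06). Counts of Idi1 were not whole in all 4 libraries. Srebf2, the transcription factor of the pathway, picked after its values were seen, had 451, 448, 431 and 374 CPM, and its level at MOI 120 was 0.828 times that at MOI 15. Without MOI 120, 11 of the 21 were called as falling.

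Fatty acid synthesis fell too, with 10 of 11 genes falling and a median slope of -0.12. Fasn, the fatty acid synthase, had 1142, 1051, 967 and 772 CPM (slope -0.18 ± 0.020, SE; edgeR adjusted p = 9.06e-06), and Elovl6, which lengthens its product, had 290.0, 267, 246 and 204 CPM (slope -0.16 ± 0.019, SE; edgeR adjusted p = 2.04e-05). Scd2, a desaturase picked after its values were seen, had 3694, 3425, 3215 and 2632 CPM. The largest of the 3 median steps was again the last, at -0.091, -0.094 and -0.22. Srebf1, the transcription factor of this branch, was not called, at 123, 121, 119.9 and 109 CPM. Without MOI 120, 6 members were called.

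**Figure D3:**
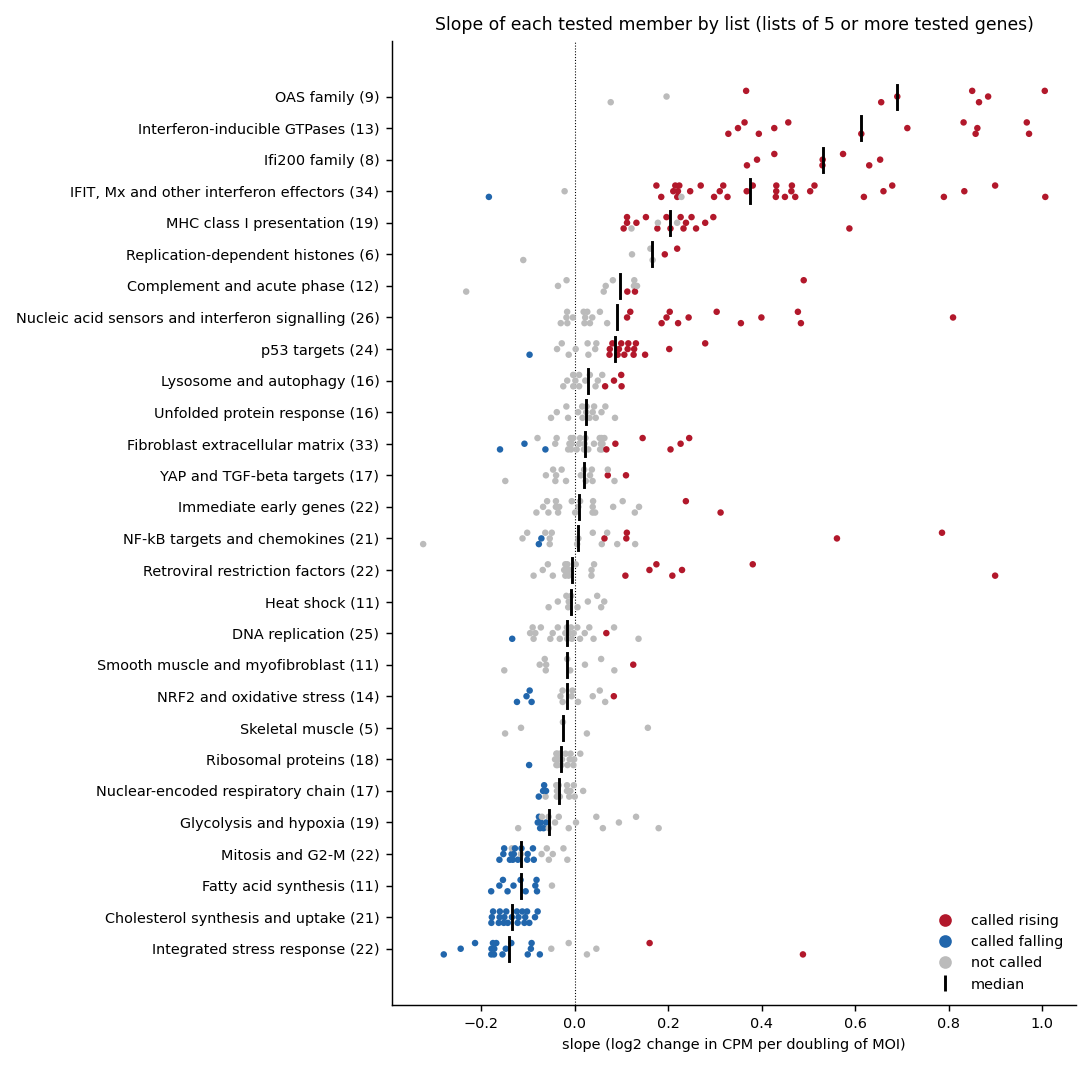
Slope of each tested member (horizontal axis, log2 change in CPM per doubling of MOI) for the lists with 5 or more tested genes, ordered by their median (black bar), with the number tested in brackets. The interferon lists and MHC class I stand at the upper end, and cholesterol, fatty acid, mitosis and integrated stress response genes at the lower end, close together below 0.

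Other stress programmes had small median slopes, with no call in some lists and several in others, beside 4.06% of all genes rising and 3.42% falling. None of 16 unfolded protein response genes (median slope 0.025) and none of 11 heat shock genes (median slope -0.0078) was called. The chaperone Hspa5 (BiP), picked after its values were seen, had 459, 479, 466 and 479 CPM. Of 14 NRF2 and oxidative stress genes, 4 fell and 1 rose (Hmox1, the haem-degrading oxygenase, at 111, 112, 117 and 132 CPM). The fallers included the metallothionein Mt2, at 142, 128, 123 and 108 CPM (slope -0.12 ± 0.019, SE; edgeR adjusted p = 0.000389), and the mitochondrial dismutase Sod2, at 190.1, 175, 163 and 153 CPM (slope -0.10 ± 0.017, SE; edgeR adjusted p = 0.000894), while 1 and 2 members fell without MOI 15 and without MOI 120. Of 16 lysosome and autophagy genes, 4 rose, among them Npc2, a carrier of cholesterol out of lysosomes, at 835, 905, 913 and 1044 CPM, and the membrane protein Lamp2, at 597, 656, 639 and 754 CPM. No member of the list rose without MOI 120, 2 without MOI 30 or by DESeq2, and 7 without MOI 60.

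Some genes of energy metabolism fell, beside 3.42% of all genes. Of 19 glycolysis and hypoxia genes, 6 fell, such as Tpi1, triose phosphate isomerase, at 372, 338, 337 and 309 CPM, and Pgk1, at 431, 391, 393 and 361 CPM. Of 17 nuclear-encoded respiratory chain genes, 4 fell: Cox6c, Ndufa4 and the ATP synthase subunits Atp5b, at 1314, 1250.5, 1232 and 1100.1 CPM, and Atp5a1, at 834, 781, 791 and 711 CPM. Neither list had a call without MOI 15 or without MOI 120, and DESeq2 called 3 and 1. Of 18 ribosomal protein genes only Rps2 fell, at 2117, 2013, 2011 and 1681 CPM, and 5 did without MOI 60 and 0 without MOI 120. The list summed to 17826, 17168, 17370.5 and 16398 CPM.

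Fibroblast identity genes were mixed. Of 33 extracellular matrix genes, 6 rose and 3 fell (S100a4, Pdgfrb and Vim), with a median slope of 0.021. Over all genes 4.06% rose and 3.42% fell, so 1 or 2 calls in a list below say little about that list. Thbs1, a matrix protein that activates TGF-beta, rose, at 305, 386, 402 and 526 CPM (slope 0.24 ± 0.022, SE; edgeR adjusted p = 1.05e-06), and S100a4, a calcium-binding protein of motile fibroblasts, fell, at 1110.5, 935, 885 and 779 CPM (slope -0.16 ± 0.017, SE; edgeR adjusted p = 5.77e-06). Without MOI 60, 13 members rose, and 12 did with no filter on low counts. Col1a1, picked after its values were seen, was not called, at 2904, 2950.1, 2763 and 2704 CPM. Of 22 immediate early genes the growth-factor-induced Egr1, at 32.9, 40.8, 38.7 and 56.8 CPM, and Egr2, at 4.61, 5.77, 5.63 and 9.17 CPM, rose, and neither did by DESeq2 or without MOI 120. Of 17 YAP and TGF-beta targets, Amotl2, a feedback inhibitor of YAP, at 77.3, 87.3, 89 and 98.6 CPM, and Ltbp2, at 383, 391, 390.3 and 449 CPM, rose, but neither without MOI 120. Itga8 rose as 1 of 11 smooth muscle genes, at 30.7, 33.5, 33 and 40.8 CPM, not by DESeq2, without MOI 15 or without MOI 120. None of the 5 skeletal muscle genes tested was called. Among marker genes of other cell types, Mpeg1, at 0.912, 1.29, 1.56 and 2.74 CPM, and Col11a1, at 34.2, 49.9, 41.6 and 59.3 CPM, rose, neither by DESeq2 or without MOI 120, and Tubb3 fell.

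**Figure D4:**
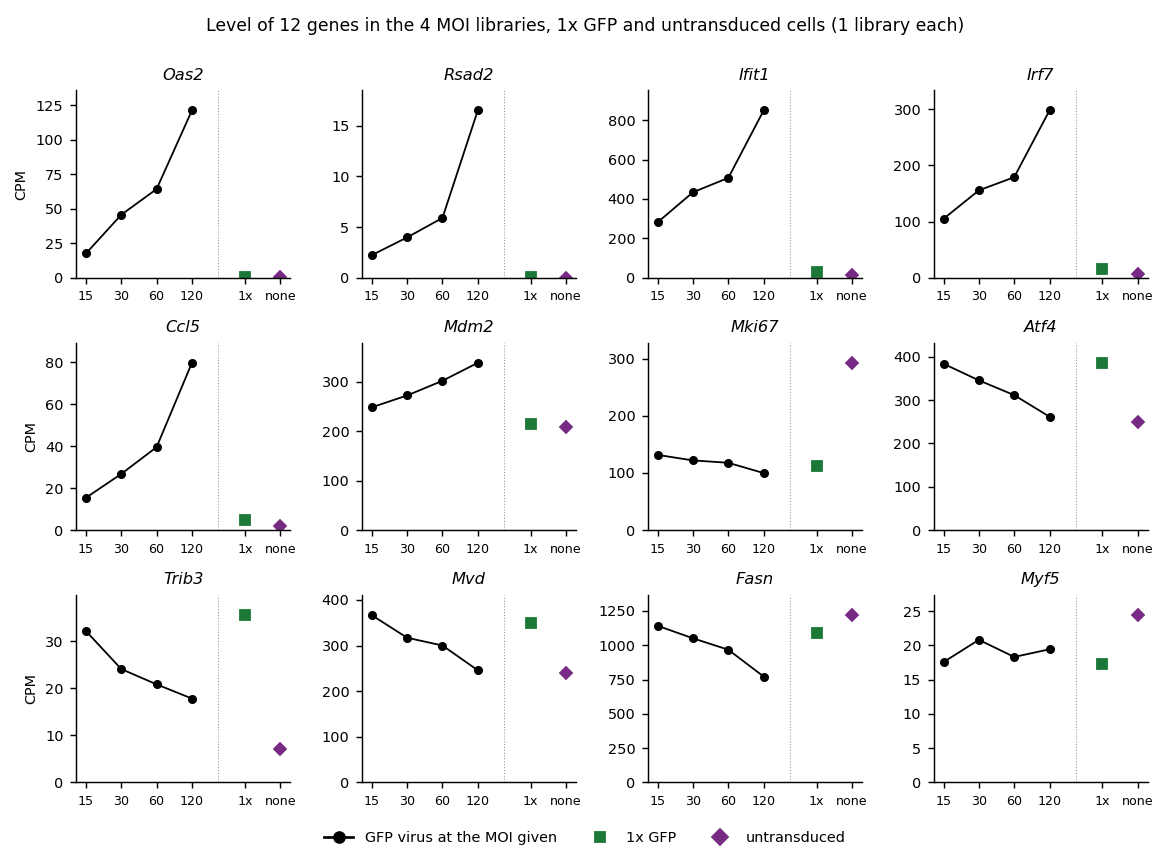
CPM (vertical axes, each from 0) of 12 genes at MOI 15, 30, 60 and 120 (black), in 1x GFP (green square) and in untransduced cells (purple diamond), 1 library each. Oas2, Rsad2, Ifit1, Irf7 and Ccl5 at MOI 15 already lie above 1x GFP and untransduced cells, while Atf4, Trib3 and Mvd at MOI 15 lie near 1x GFP and decline from there.

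Bending was rarely called. The curvature, the step from 60 to 120 minus the step from 15 to 30, was called in 11 genes (0.0822% of 13383): 8 bent upward (0.0598%) and 3 downward (0.0224%), with 663 genes at an unadjusted p under 0.05. This fit has 1 residual degree of freedom, no library can be left out of it, and the count was 2 with library totals in place of TMM and 0 by DESeq2 or with the spread of all 10 libraries. Ccl11 (eotaxin), a chemokine for eosinophils, had 44.8, 53.2, 62.9 and 118 CPM and a curvature of 0.69 ± 0.11 (SE; edgeR adjusted p = 0.00194). Steap4, a metalloreductase, had 111, 102, 106 and 146 CPM, with a curvature of 0.61 ± 0.091 (SE; edgeR adjusted p = 0.000859), and Ifit2 had 175, 196, 219 and 339 CPM. In all 3 the level changed little or modestly up to MOI 60 and was highest at MOI 120. Tgtp1 bent upward as well, and so did Mmp10, a matrix protease, with 12.7, 12, 8.98 and 19.7 CPM and its lowest value at MOI 60. The downward bends were Gm23935, with 104, 128, 271 and 155 CPM, Ltbp4, with 102, 120.1, 110.0 and 92 CPM, and the nuclear RNA Malat1, with 798, 1011, 1072 and 1042 CPM. Gm23935 was higher in every other library of the table. It had 1095.5 CPM in 1x GFP, 1249 CPM in untransduced cells and 1570 to 1867 CPM with MyoD or Myf5. What sets those libraries apart from the MOI series was not tested.

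Some genes were highest or lowest at the middle doses. These were ranked by shape over the same values, so they are a description with no test. Tpcn1, a lysosomal channel, had 72.9, 80.5, 80.9 and 71.2 CPM, and Crtc3, a coactivator of CREB, had 39, 44, 44.2 and 39.3 CPM, with Hivep1, Capn15 and Mrps17 alike. Borcs8, a subunit of a lysosome-positioning complex, had 26.4, 21.1, 21.7 and 26 CPM, and Cenpc1, of the kinetochore, had 40.5, 36.1, 36.1 and 41.4 CPM, with Alkbh8, Phyh and Ngdn alike. None of these 10 genes was called for slope or curvature. Over all genes, 31.1% were highest at MOI 120, 29.0% at MOI 15, 20.8% at MOI 30 and 19.2% at MOI 60.

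Longer genes tended to have higher slopes. Over 11882 protein-coding genes, Spearman's rho between slope and exon length was 0.12, given as a description across genes of the same 4 libraries. The median exon length was 5108 bases in rising, 4055.5 in falling and 4563 in all genes, and its part in the slopes was not tested.

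The 1x GFP and untransduced libraries (1 each, so without a test) show the same genes at a single dose and without virus. Gm23935 had 104 to 271 CPM in the MOI libraries but 1095.5 CPM in 1x GFP and 1249 CPM in untransduced cells. Between these sets of libraries, dose cannot be told apart from other differences in level. Of the 544 genes that rose with MOI, 341 (62.7%) were higher in 1x GFP than in untransduced cells, against 50.5% of all genes. Of the 458 that fell, 180 (39.3%) were lower in 1x GFP, against 49.5% of all genes. All 13 GTPases and 30 of 34 interferon effectors were higher in 1x GFP than in untransduced cells. Ifi204 had 17.3 CPM in 1x GFP and 7.84 CPM in untransduced cells, both below the 71 CPM at MOI 15, and Oas2 had 0.319 and 0.289 CPM, against 17.6 CPM at MOI 15.

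All 22 ATF4 stress genes were higher in 1x GFP than in untransduced cells, with a median log2 ratio of 0.92, while 16 fell with MOI. Atf4 had 386 CPM in 1x GFP and 249.8 CPM in untransduced cells, and Trib3 35.6 and 7.05 CPM. Cholesterol genes were higher in 1x GFP in 19 of 21, with a median log2 ratio of 0.24. Mitosis genes were lower in 1x GFP in all 22, with a median log2 ratio of -1.13, and so were all 25 replication genes, of which 1 fell with MOI.

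The dose of virus was also raised with MyoD and Myf5, at 2x over 1x, and these libraries share none with the MOI series. The MOI slope minus a dose slope common to both factors was tested in 13825 genes over the 10 libraries with edgeR's quasi-likelihood test. It was called in 736 genes (5.32%), with the MOI slope higher in 358 (2.59%) and lower in 378 (2.73%), and 3271 genes had an unadjusted p under 0.05. The dose slope of the factors was itself called in 1678 genes (12.1%): 866 rose (6.26%) and 812 fell (5.87%). Against MyoD alone the difference was called in 4203 genes and against Myf5 alone in 1190.

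In the interferon lists Myf5 and MyoD gave unlike medians. For the effectors the median log2 ratio of 2x over 1x was 1.52 with Myf5 and -0.12 with MyoD, against a slope of 0.37 per doubling of MOI. Their summed CPM reached 5688 in the 2x Myf5 library, against 2289 in the 1x one, while the MyoD libraries held 1071 at 2x and 1169 at 1x. Oas2 stood at 48.6 CPM with Myf5 at 2x and 5.07 CPM at 1x, and at 1.91 CPM with MyoD at 2x and 1.3 CPM at 1x. No gene of the effector, OAS, GTPase and Ifi200 lists differed from the common slope in this fit, whose spread includes the difference between the factors. The difference between MyoD and Myf5 was not tested here.

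Matrix and respiratory genes had slopes unlike the factor dose. Of the 33 matrix genes 18 had a higher MOI slope and none a lower one, against 2.59% and 2.73% of all genes. Their medians were 0.021 per doubling of MOI and -0.44 and -0.20 for 2x over 1x of MyoD and Myf5. Of the 17 respiratory genes 10 had a lower MOI slope. Cholesterol genes differed in 2 of 21 and fatty acid genes in 0 of 11, against 5.32% of all genes, so these counts say little about either list. The fatty acid list was lower in 2x than in 1x in all 11 genes with either factor, with medians of -0.22 for MyoD and -0.24 for Myf5.

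**Figure D5:**
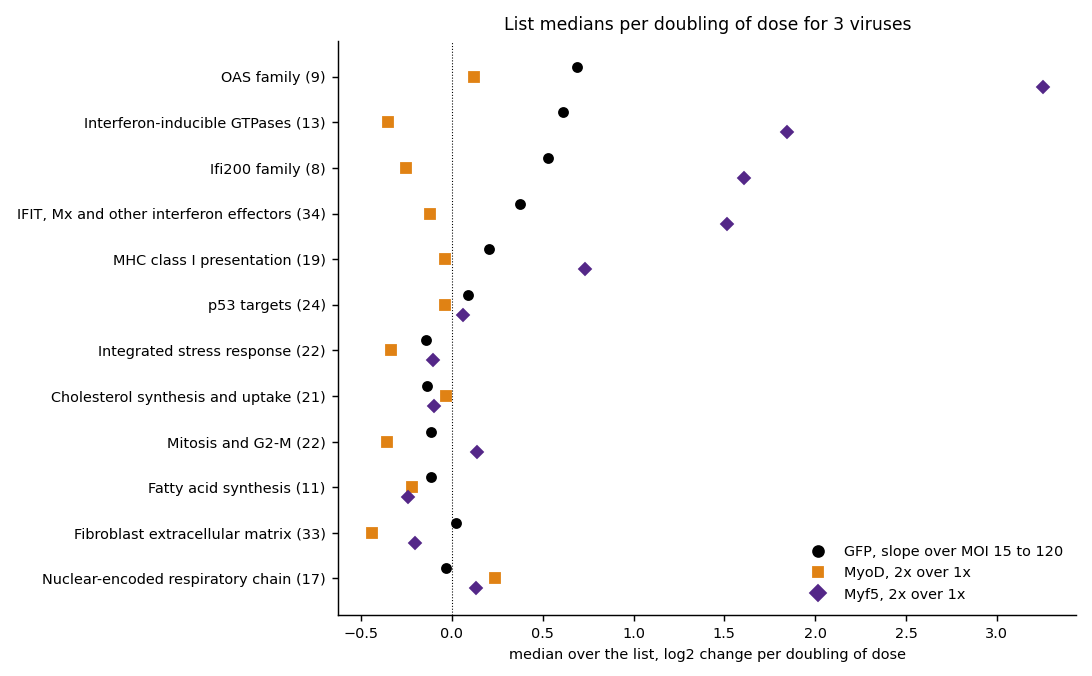
Median over each list of the log2 change per doubling of dose (horizontal axis): the slope over MOI 15 to 120 of the GFP virus (black circle), 2x over 1x MyoD (orange square) and 2x over 1x Myf5 (purple diamond), with the number of genes in brackets. The interferon lists lie right of 0 for GFP and further right for Myf5 but near or left of 0 for MyoD, while fatty acid genes lie left of 0 for all 3.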

How the data were processed

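Total RNA was sequenced from oligo-dT libraries on an Illumina HiSeq, per the labels' protocols. CASAVA 1.8.2, TopHat2 2.0.8 and the genome build mm9 were used, per the submitters' processing notes, and the sources used here name no counting tool or annotation. The values deposited by the authors are estimated counts per Ensembl gene, 1 column per library, some of them not whole (tolerance 1e-06), and they were rounded here. Symbols came from GENCODE vM21 names, with 32610 of 37287 genes matched. A second count table (a chimeric factor and a repeat of MyoD) was not used here. 

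From these counts, edgeR 4.0.16 in R 4.3.3 (TMM scaling, genes with at least 1 CPM in at least 2 of the 4 libraries) tested the slope on centred log2 MOI with 2 residual degrees of freedom. Curvature (1 residual degree of freedom) and the difference from the MyoD and Myf5 dose slope (10 libraries, 3 residual degrees of freedom) used the same quasi-likelihood test, and all p-values were adjusted by Benjamini-Hochberg over all genes tested. Every SE is the estimate divided by the root of its F value. Printed CPM use plain library totals, and steps use TMM-scaled log2 CPM with a prior count of 2. With 1 library per dose, p-values measure scatter around the fitted line, which may be technical. The test was run on simulated counts, drawn independently for each gene with 1 spread common to all genes, estimated from the 4 libraries. It recovered 19 of 67, 51 of 67 and 65 of 66 genes with true slopes of 0.1, 0.2 and 0.5. Of 13183 unchanged genes it called 4. Variation between cultures is not in this simulation, so it does not give the rate of false calls in the data. DESeq2 1.42.0, limma 3.58.1, other scalings and filters, a linear MOI axis and leaving out each library were tried.

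The dose series, as a subject, and the gene lists were chosen with earlier results of these data known, while the labels alone say which libraries belong to the series. The 34 lists hold 592 genes, of which 6 matched no gene of the table and 6 stand in more than 1 list. Genes were named as the 10 largest rises and falls among called, monotone genes of at least 5 CPM, the 2 called members of each list with the smallest p, Myod1 and Myf5, the curvature calls (up to 5 for each sign, at least 5 CPM), and 5 genes of each middle shape (at least 20 CPM). Other list members were named after their values were seen. A few genes picked by these rules are not reported here. Promoter windows are those of RefSeq.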

Additional observations from a re-analysis of the deposited data

Results flagged for a closer look

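Of the named genes, 8 had a slope on MOI that differed from the dose slope common to MyoD and Myf5 (2x over 1x), by edgeR's quasi-likelihood test of the difference itself over 10 libraries. Each difference is the MOI slope minus the factor slope, on the log2 scale per doubling. The ATP synthase subunit Atp5b had a difference of -0.34 ± 0.050 (SE; edgeR adjusted p = 0.0128) and Atp5a1 one of -0.29 ± 0.058 (SE; edgeR adjusted p = 0.0319). In both, the MOI slope was below 0 (-0.077 and -0.066) and the factor slope above it (0.26 and 0.22). Pgk1, a glycolytic enzyme, had a difference of -0.24 ± 0.054 (SE; edgeR adjusted p = 0.0445), with the same pair of signs. Amotl2, a feedback inhibitor of YAP, had a difference of -0.28 ± 0.052 (SE; edgeR adjusted p = 0.0257), and both its slopes were above 0, the factor slope at 0.39.

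The other four had the higher slope over MOI. Itga8, an integrin chain, differed by 0.38 ± 0.082 (SE; edgeR adjusted p = 0.0368) and Egr1, an immediate early transcription factor, by 0.71 ± 0.12 (SE; edgeR adjusted p = 0.0196), with factor slopes of -0.26 and -0.48. Stra6 differed by 0.81 ± 0.12 (SE; edgeR adjusted p = 0.0136); it fell over MOI, and its factor slope was lower still, at -1.09. The matrix protease Mmp10 differed by 1.30 ± 0.30 (SE; edgeR adjusted p = 0.0464), with a factor slope of -1.12 and no call on its MOI slope. The factors themselves, the depth of the libraries and the unknown scale of 1x cannot be told apart from the virus in these differences.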

How the results depend on the processing

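No paired analysis was possible because each dose and group has 1 library. The count of called slopes stayed within 1.5 times 1002 under 8 settings (967 to 1286): other scalings, no filter or a stricter one, linear MOI, limma-voom and counts not rounded. DESeq2 called 288 rising and 198 falling genes (486). With the spread of all 10 libraries 0 rising and 0 falling genes were called (0 in all, 874 at an unadjusted p under 0.05). The spread there includes the differences between the 2x and 1x libraries of each factor. A dose term common to MyoD and Myf5, added after seeing the data, takes out the change they share. Their unlike dose responses stay in the spread, and again 0 genes were called (1647 unadjusted). Leaving out 1 library gave 226 to 843 rising, 113 to 785 falling and 339 to 1628 called genes, lowest without MOI 120 and highest without MOI 60, and the cause was not tested. Curvature was called in 2 genes with library totals, 0 by DESeq2 and 0 with the spread of all 10 libraries, and no library could be left out of it. The slope difference was called in 4203 genes against MyoD alone and 1190 against Myf5 alone.

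Slopes near 0 changed sign for Myf5 (-0.047 without MOI 15, highest 0.048 without MOI 30) and Myod1 (0.0090 without MOI 120, lowest -0.037 without MOI 60). Against MyoD alone the difference turned positive for Ifi206 (1.01), Rsad2 (1.10), Oas1g (0.69), Tgtp1 (2.39), Tgtp2 (1.69), Gm4951 (2.45), Trim30a (1.18), Sp100 (0.54), Oas1a (0.72), Oas3 (1.21) and Tubb3 (0.086). Against Myf5 alone it turned negative for Trib3 (-0.078) and Cdkn3 (-0.12), and DESeq2 gave 0.21 for Tgtp1. Of slopes of single genes under an alternative, 847 kept direction and side of the threshold, 199 kept direction only, and the 2 named changed sign. At 17.9 to 22.4 M counts with 1 library per dose, small slopes are the limit. In counts simulated without variation between cultures, 19 of 67 changes of 0.1 per doubling were recovered.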
